A study of Mus musculus with 30 samples.

Results

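RAD21 binding was compared between wild-type (WT) mouse embryos and embryos with the allele Del(CBS1-2). This allele lacks the first and the second of a row of CTCF binding sites (CBS) in the Hoxd gene cluster. The data were all RAD21 peak lists labelled WT (4 libraries) or Del(CBS1-2) (2 libraries), which are 6 of the 30 libraries and 205493 of the 1350341 peaks on the main chromosomes of the series. All 6 were trunks of B6CBAF1 embryos at E10.5 from crosses of trans-heterozygous parents, taken as homozygous mutants or control littermates after typing of the yolk sac. Each embryo was dissociated on its own, so each list was treated as 1 embryo, although no label names the embryos, their litters or their sex. RAD21 was mapped by ChIPmentation, in which antibody-bound chromatin is tagged with sequencing adapters by Tn5 transposase on the beads. The question was what happens to cohesin within Hoxd, and in the rest of the genome, when both CBS1 and CBS2 are mutated. The assay reports no expression, so the cells of the trunk could not be checked against marker genes.

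RAD21 is the subunit that closes the cohesin ring. Cohesin extrudes chromatin loops and is halted by CTCF bound in the right orientation, so RAD21 peaks mark the places where loops are anchored. The Hoxd genes, which give positional identity along the trunk and limbs, lie between a centromeric and a telomeric regulatory landscape, and the CTCF sites inside the cluster sit between the enhancers of these landscapes and the genes. The labels give no coordinates for CBS1 to CBS5. Their positions on mm10 were therefore taken from the pattern of CTCF loss over all 14 CTCF libraries of the series, which left 5 library calls off pattern against 7 for the next best assignment. Of these calls, 2 were at CBS1 and 3 at CBS2, the sites that the allele lacks, and 0 at CBS3, CBS4 and CBS5. CBS1 was placed at chr2:74715933, CBS2 at chr2:74702390, CBS3 at chr2:74694237, CBS4 at chr2:74691779 and CBS5 at chr2:74686497. CBS1 lies 13543 bp from CBS2, and CBS4, which the allele leaves intact, lies 10611 bp beyond CBS2.

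The 2 stretches of RefSeq sequence (GRCm38.p6, the build also known as mm10) printed here cover the RAD21 site at CBS4 and a position beside CBS1. Neither stretch holds the position of CBS1 or CBS2 itself. The Hoxd10 promoter, chr2:74691641-74691940 on the plus strand, holds the RAD21 site at CBS4, and its capitals mark the bases between the outermost of the 6 libraries' RAD21 summits. The promoter of Hoxd3os1, the antisense transcript of Hoxd3, is chr2:74716081-74716380 on the minus strand and lies beside CBS1. Its capitals mark the only match to the core of the CTCF motif, spelled as CC, any 3 bases, AG, any 2 bases and GGC, which was searched on both strands and matched here on the strand opposite to the printed one. That motif was found in 8.61% of the 32851 RefSeq promoter windows of this length, and in 43.2% of the 720 windows that hold a RAD21 site of all 4 WT libraries. The Hoxd10 window has no match to these letters.

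Hoxd10: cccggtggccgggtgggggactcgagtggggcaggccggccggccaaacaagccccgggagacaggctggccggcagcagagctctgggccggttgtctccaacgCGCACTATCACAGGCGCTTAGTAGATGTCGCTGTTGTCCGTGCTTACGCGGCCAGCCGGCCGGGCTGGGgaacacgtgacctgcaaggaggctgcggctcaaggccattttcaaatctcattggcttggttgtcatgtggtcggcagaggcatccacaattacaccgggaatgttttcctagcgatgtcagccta

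Hoxd3os1: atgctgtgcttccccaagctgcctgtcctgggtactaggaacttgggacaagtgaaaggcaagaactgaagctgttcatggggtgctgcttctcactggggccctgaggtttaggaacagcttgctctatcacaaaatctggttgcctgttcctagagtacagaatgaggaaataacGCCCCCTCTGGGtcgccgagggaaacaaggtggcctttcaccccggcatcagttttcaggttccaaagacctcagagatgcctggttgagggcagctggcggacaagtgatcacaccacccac

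The lists held 22406, 39746, 32433 and 34169 peaks in WT replicates 1 to 4 and 38097 and 38642 in Del(CBS1-2) replicates 1 and 2. They hold no read counts, so sequencing depth was unknown and neither counting intervals nor floors were given. WT replicate 1 stood apart with the shortest list and the highest share of peaks at CTCF sites. Summits within 150 bp of each other were joined into 57094 sites, and a library had a site when 1 of its peaks covered the median summit. Signal was compared as the percentile of the authors' fold enrichment among the 19832 sites that all 6 libraries share, with 0 for no peak. Over these sites Spearman's rho across sites was 0.777 to 0.899 between WT libraries, 0.813 to 0.910 between WT and mutant libraries and 0.918 between both mutant libraries. The rho values of pairs across the genotypes thus overlapped those of the WT pairs. With 4 libraries against 2, the exact permutation test has 15 assignments and cannot go below a two-sided p of 0.0667, so none of the exact tests given here could reach 0.05.

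CBS1 carried one of the strongest RAD21 peaks of the WT trunk, and that peak was absent from both mutant libraries. The site, at chr2:74715962 within the RefSeq spans of Hoxd3 and Hoxd3os1, had fold enrichments of 15.2, 13.7, 11.8 and 17.8 in the WT libraries, where it stood at percentiles 97.8, 95.8, 88.8 and 97.4. Neither Del(CBS1-2) library had a peak over it, so the groups did not overlap. From a WT mean percentile of 94.9 ± 4.21 (SD, n = 4) to 0 in both mutants, this was the largest fall among the 19977 sites found in all 4 WT libraries (exact two-sided permutation p = 0.0667, the smallest the design allows). After Benjamini-Hochberg adjustment over the 12 sites of the HoxD window, this permutation p was 0.267.

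At CBS2 the RAD21 peak was absent from 1 mutant library and weak in the other. The site lies at chr2:74702408, in no RefSeq gene span, between Hoxd9 and the non-coding Gm38462, which is 595 bp away. Its fold enrichments in WT were 9.95, 8.82, 10.03 and 10.47, at percentiles 75.9, 61.8, 77.0 and 58.2. Del(CBS1-2) replicate 1 had no peak over it. Replicate 2 had a weak one of fold 2.48 and -log10 q of 3.66, at percentile 0.116. All 4 WT libraries were thus far above both mutants, and the fall of 68.2 percentiles from the WT mean of 68.2 ± 9.63 (SD, n = 4) ranked the third among the 19977 sites (exact two-sided permutation p = 0.0667, and 0.267 adjusted over the HoxD sites). Detection there depended on the rule: CBS2 was found in 0 of 2 mutant libraries when only peaks with a -log10 q of at least 10 were kept, and in 2 of 2 when any peak base within 250 bp counted, since replicate 1 had a peak of fold 2.64 and -log10 q of 4.52 that ended short of the summit. All 4 WT libraries had CBS2 under each rule. By the wider rule CBS1 was found in 1 of 2 mutants, through the peak beside it.

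That RAD21 peak lay beside the mutated CBS1 in 1 of the mutant libraries. At chr2:74716217, 255 bp from the CBS1 site and within the span of Hoxd3, Del(CBS1-2) replicate 2 had a peak of its own with fold 3.18, -log10 q of 5.13 and percentile 1.01, while replicate 1 had none. The 4 WT libraries have no summit within 100 bp of this position, which in them is covered by the flank of the broad CBS1 peak, so its WT value is that of CBS1 and its fall, ranked the second, counts the same peak again. The position falls at base 164 of the Hoxd3os1 window printed above, and the motif core in capitals covers bases 178 to 189 (chr2:74716192-74716203). The same place had CTCF summits: the single CTCF list of Del(CBS1-2) had no peak over CBS1 but had one with its summit at chr2:74716173, with fold 7.58 and -log10 q of 27.0. Across the series, a CTCF summit within 100 bp of this position was found in 9 of the 10 CTCF libraries with CBS1 mutated, at folds of 2.84 to 7.58, and in 0 of the 4 with CBS1 intact. For RAD21 the counts were 2 of 11 libraries with CBS1 mutated and 0 of 5 with CBS1 intact. The lists hold intervals with several summits (39746 peaks in 37551 intervals in WT replicate 2), but whether a weak summit this close to a strong one would be listed was not tested.

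CBS4, the nearest RAD21 site beyond CBS2 towards the 5' Hoxd genes, stood higher in both mutants than in any WT library. The site at chr2:74691797 lies in the span of Hoxd10, a gene that patterns the posterior trunk and limbs, at base 157 of the promoter window printed above, in which the 6 summits span bases 106 to 174. The WT libraries had fold enrichments of 6.09, 9.67, 7.92 and 12.1, at percentiles 35.4, 70.2, 56.7 and 71.2. Del(CBS1-2) had 11.1 and 13.3, at percentiles 81.9 and 91.6. Both mutant percentiles lay above all 4 WT percentiles, although on the fold scale WT replicate 4 lay between them. Such a non-overlap upwards was found at 5.79% of the 19832 shared sites. The rise of 28.4 percentiles, from 58.4 ± 16.7 (SD, n = 4) to 86.7 ± 6.92 (SD, n = 2), was the 57th largest among those sites, and it was 16.7 without WT replicate 1, the library with the shortest list. In the fit across all shared sites it was 0.92 ± 0.28 (SE) normal-score units, where a normal score is the site's rank in its library on a bell-shaped scale, with an unadjusted p of 0.0039 and a limma adjusted p of 0.999. The exact two-sided permutation p was 0.133, and 0.32 adjusted over the HoxD sites. The rise in mean was thus larger than 1 SD of the WT libraries and smaller than their range, and it did not pass the test across all sites.

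**Figure D1:**
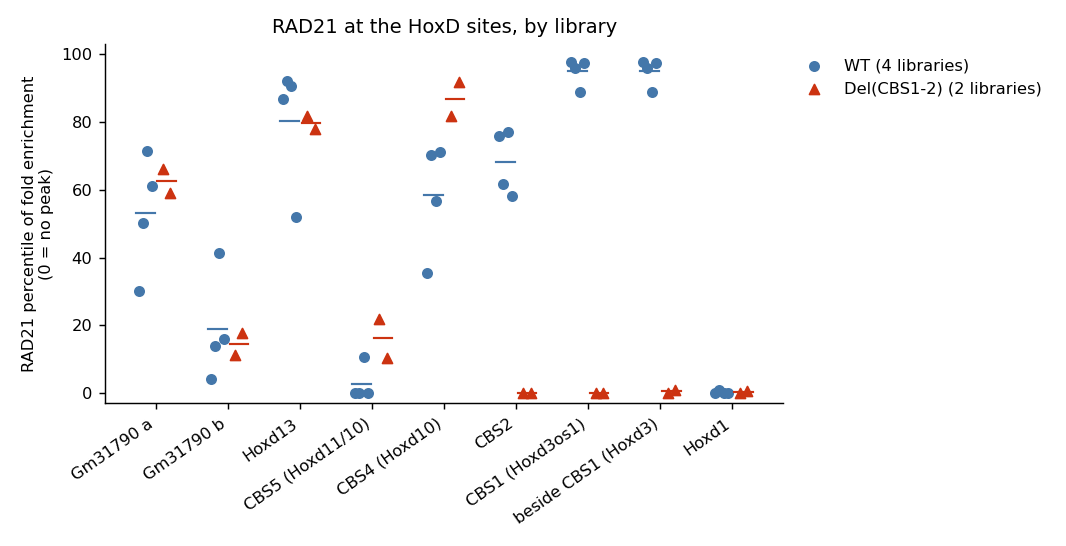
RAD21 percentile of fold enrichment (vertical axis, 0 for no peak) in each library at the 9 HoxD sites with a peak in at least 2 of the 6 libraries, in genome order from the Evx2 side to Hoxd1. Circles are the 4 WT libraries, triangles the 2 Del(CBS1-2) libraries and short lines the group means. Both mutant libraries are at or near 0 at CBS2 and CBS1, and at percentiles 81.9 and 91.6 at CBS4; the position beside CBS1 takes its WT values from the CBS1 peak.

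CBS5 had weak RAD21, with a peak in 2 of 4 WT libraries and in both mutants. That pattern was found at 2745 of the 57094 sites, and the mutant lists are longer than 3 of the 4 WT lists. At chr2:74686458, within the spans of Hoxd10 and Hoxd11, WT replicates 1 and 4 had no peak, WT replicates 2 and 3 had folds of 2.41 and 4.25, and Del(CBS1-2) had folds of 5.47 and 4.64. As percentiles these were 0, 0.116, 10.7 and 0 in WT against 22.02 and 10.3 in the mutants. On this scale WT replicate 3 lay between both mutant libraries, so the groups overlapped (exact two-sided permutation p = 0.133, and 0.32 adjusted over the HoxD sites). On the fold scale both mutants lay above all WT values. CBS3, at which CTCF had a peak in all 3 WT libraries and in the mutant, had no RAD21 peak in any of these 6 libraries.

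The HoxD sites further from the mutations overlapped between the groups. The site at chr2:74673082, 1479 bp from Hoxd13, the most 5' Hoxd gene, had WT percentiles of 86.7, 92.1, 90.7 and 52.0 and mutant percentiles of 81.8 and 77.8. Its rank change was -0.14 ± 0.32 (SE) normal-score units with a limma adjusted p of 0.999. The 2 sites in the span of the predicted gene Gm31790, on the Evx2 side of the cluster, changed by 0.24 ± 0.28 (chr2:74661977) and by -0.06 ± 0.40 (chr2:74663707). Both mutant libraries lay inside the WT range at each of these. The last site, 24 bp from Hoxd1 (chr2:74762956), was found in WT replicate 2 (fold 3.16) and Del(CBS1-2) replicate 2 (fold 2.96) only. The remaining 3 of the 12 sites of the HoxD window (chr2:74632989-74785142) were in 1 library each.

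The unreplicated CTCF list of Del(CBS1-2) is given as a description, on the percentile scale of the 46803 CTCF sites found in it and in all 3 WT CTCF libraries. CTCF at CBS1 had folds of 18.4, 12.5 and 14.2 in WT and no peak in the mutant. At CBS2 they were 19.1, 14.2 and 11.5 in WT against 2.96 in the mutant, where the percentile was 2.26. Both positions were chosen by the pattern of CTCF loss over libraries that include this one, so these values describe the choice and support nothing further. At CBS4, CTCF stood at percentiles 2.20, 37.1 and 16.6 in WT and at 40.0 in the mutant, above all 3 WT values as for RAD21. At CBS3 the fold was 6.49 against 7.29 to 9.41 in WT, at CBS5 9.61 against 9.66 to 13.0, and near Hoxd13 17.3 against 13.3 to 15.5. These differences have no replicate check.

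Other alleles put the changes at CBS2 and CBS4 side by side with single mutations, on percentiles over the 12972 sites that all 16 RAD21 libraries share. CBS2 stood at percentiles 39.4 to 65.3 in WT, at 58.8 to 89.3 in the 3 Del(CBS1) libraries, and at 0 and 0.0617 in Del(CBS1-2). CBS1 stood at 97.7 in the single Del(CBS2) library, against 83.0 to 96.6 in WT. The RAD21 peak at CBS2 was thus present with CBS1 alone mutated, and that at CBS1 with CBS2 alone mutated. CBS4 stood at 15.97 to 56.9 in WT, at 68.5 to 91.4 in Del(CBS1), at 82.2 in Del(CBS2) and at 72.6 and 87.3 in Del(CBS1-2). All of these alleles share the WT libraries as controls, and the difference between Del(CBS1-2) and the single mutations was not tested here.

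Across the genome, nearly all sites found in all 4 WT libraries were also found in both mutants. Of the 19977 sites found in 4 of 4 WT libraries, 19832 were found in both mutants, 124 in 1 of them (0.621%) and 21 in neither (0.105%), and the 21 are called lost. Of the 31296 sites found in both mutants, 19832 (63.4%) were in all 4 WT libraries and 1029 (3.29%) in none, and the latter are called gained. The lost and gained sites were weak: the median over sites of the lowest -log10 q among the libraries with the peak was 2.91 for lost and 2.98 for gained sites, against 11.99 for the sites in all 6. The lowest value is taken over 4 libraries for lost, 2 for gained and 6 for shared sites. A minimum falls with the number of values, so the lost and gained medians are not like for like. Of the 21 lost sites, CBS1 (79.95) and 1 site in Firre (12.5) had a lowest -log10 q of at least 10. The Hoxd window held 1 lost site (CBS1), 2 of the sites found in 1 mutant (CBS2 and the position beside CBS1) and 0 gained sites.

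**Figure D2:**
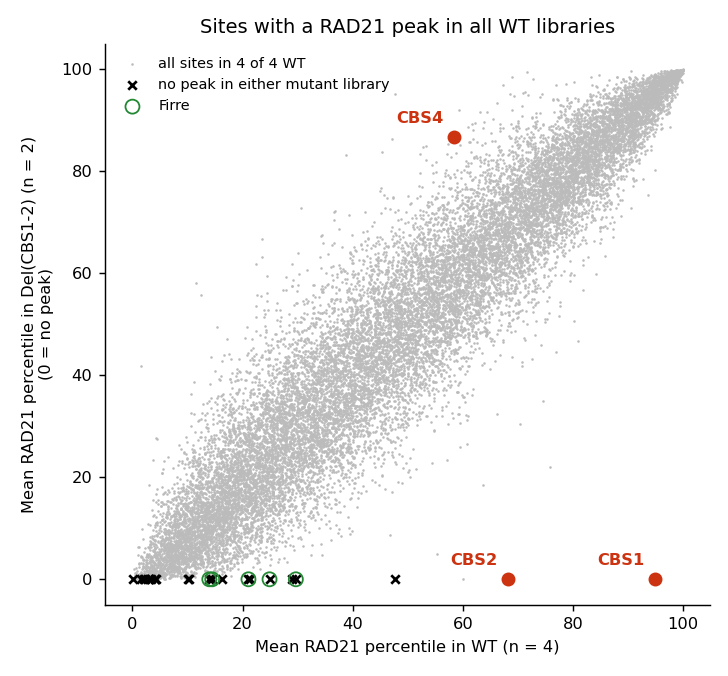
Mean RAD21 percentile in WT (horizontal axis, 4 libraries) against that in Del(CBS1-2) (vertical axis, 2 libraries, 0 for no peak) for the 19977 sites found in all WT libraries. CBS1, without a mutant peak, and CBS2, with a weak peak in 1 mutant library, lie at the bottom right. The position beside CBS1, which takes its WT values from the CBS1 peak, lies there too. The other sites without a mutant peak (crosses) lie further left, and CBS4 lies above the diagonal at 58.4 and 86.7.

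Ordered by the lowest -log10 q, the 4 lost sites after CBS1 were 3 in Firre, an X-linked gene for a long non-coding RNA whose locus holds many CTCF sites, and 1 in Nrg1, which encodes the ligand neuregulin. The strongest Firre site, at chrX:50615060, had WT folds of 7.48, 5.00, 5.09 and 7.33 and a lowest -log10 q of 12.5. The Nrg1 site, at chr8:32806452, had a WT fold of 6.05 ± 1.36 (SD, n = 4) and a lowest -log10 q of 5.24. By mean WT percentile the second lost site was instead one near Rtp1 (chr16:23403192; 47.7 ± 32.0, SD, n = 4), which both mutants missed narrowly: their peaks, of fold 8.38 and 9.61, began 23 and 13 bp away. In all, 4 of the 21 lost sites had a mutant peak within 250 bp in at least 1 library, CBS1 among them, and 5 of the 21 lay in Firre, with no mutant peak in the gene. Of the 21, 18 (85.7%) lay within 150 bp of a CTCF site of all WT CTCF libraries, against 98.2% of the sites in all 6 libraries.

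Of the gained sites, 27.8% lay at such a CTCF site and 39.2% within 1000 bp of a RefSeq gene start. The shares at gene starts were 7.46% for the sites in all 6 libraries and 21.1% for all 57094 sites, of which 58.2% lay at a CTCF site, and no comparison matched for peak strength was made. A peak of at least 1 WT library lay within 250 bp of 386 of the 1029 gained sites. The strongest was 610 bp from the microRNA gene Mir101c (chr9:3038059), with mutant folds of 5.6 and 6.78 and a lowest -log10 q of 11.7. Next came a site 1699 bp from Gm12223 (chr11:54140169), a pair that shares its peaks near Gm32076 on chromosome 17, and one in Elmo1 (chr13:20434225), whose product acts in cell engulfment and migration. Their lowest -log10 q values were 11.1, 8.14 and 7.96. The mutant lists are longer than 3 of the 4 WT lists: with every list cut to the 22406 peaks of highest fold, the length of the shortest, there were 149 gained and 69 lost sites. Leaving out 1 library at a time gave 36 to 246 lost sites, the highest without WT replicate 1, and 1072 to 4760 gained sites, with 4760 and 4669 without a mutant library and 2191 without WT replicate 2. These counts move with list length and with the number of libraries, and only CBS1 and 1 Firre site among the lost, and 2 gained sites, had a lowest -log10 q of at least 10.

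**Figure D3:**
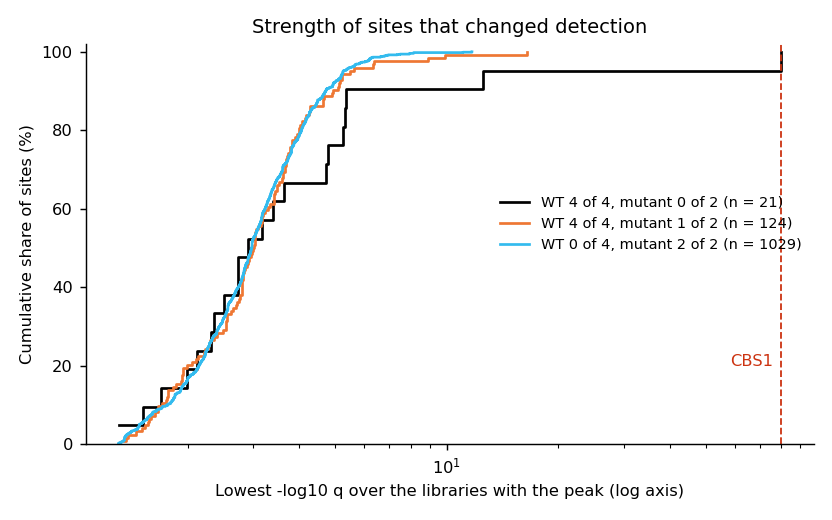
Cumulative share of sites (vertical axis, percent) by the lowest -log10 q over the libraries that have the peak (horizontal log axis), for the 21 sites lost in both mutants, the 124 sites found in 1 mutant and the 1029 gained sites. The curves lie close together at low values, with medians of 2.91 for lost and 2.98 for gained sites, and the dashed line marks CBS1 at 79.95. The lowest value is taken over more libraries for lost than for gained sites, so the curves are not like for like.

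No site changed its rank enough to pass the test across the 19832 shared sites. The limma test called 0 higher and 0 lower at an adjusted p of 0.05 (0.0% in each direction), with 621 sites at an unadjusted p under 0.05, where evenly spread p-values would give 991.6. Of the shared sites 49.9% had a higher score in the mutants. CBS1 and CBS2 are not among these sites, since they lack a peak in 1 or both mutants. With replicate 1 of Del(CBS1-2) left out, CBS2 entered the test and was lower by 3.52 ± 0.39 (SE) normal-score units. The position beside CBS1 was lower by 4.03 ± 0.37 (SE). Its WT values are those of the CBS1 peak and its mutant value is that of a separate weak peak, so it is not a further site. A site outside HoxD, 23852 bp from Ankrd55 (chr13:112264599), was also lower in that fit, by 3.17 ± 0.35 (SE). In that fit the single mutant library is assumed to vary like the WT libraries.

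The 10 sites nearest to the threshold, 5 in each direction, all had a limma adjusted p of 0.999. Among the 5 higher ones, 4 were on the X chromosome. The site in Gm42406 (chrX:36183832) stood at percentiles 28.6, 44.6, 42.5 and 39.6 in WT and 76.0 and 90.6 in the mutants, with the smallest unadjusted p of all shared sites (7.5e-05). The site in Morf4l2 (chrX:136742937), which encodes a chromatin protein, differed by 1.06 ± 0.25 (SE) normal-score units. The one autosomal site lay in the spans of Gm13629 and Scn9a, a sodium channel gene (chr2:66520203), with percentiles of 6.94, 9.31, 6.85 and 23.4 in WT and 47.4 and 69.0 in the mutants. Among the 5 lower ones, the site in Gabra3 (chrX:72644843), the gene of a GABA receptor subunit, had WT percentiles of 48.3, 33.3, 32.7 and 23.4 and mutant percentiles of 5.57 and 4.09. In each of the 4 sites described, the mutant libraries lay outside the WT range; they were picked for their small p.

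The X chromosome stood apart from the autosomes as a whole. Of its 524 shared sites, 78.8% had a higher score in the mutants, with a median difference of 0.31 normal-score units, while the medians of the 19 autosomes ran from -0.02 to 0.01. At an unadjusted p under 0.05 there were 110 X-linked sites, against 26.2 for evenly spread p-values, and 511 of the 19308 autosomal ones, against 965.4. The median score of the X-linked sites was -0.08, -0.18, -0.26 and -0.22 in WT and 0.17 and 0.09 in the mutants, so the groups did not overlap (exact two-sided permutation p = 0.0667). The share of peaks on the X moved the other way, with 2.61%, 2.64%, 2.82% and 2.86% in WT and 2.34% and 2.38% in Del(CBS1-2). The shift was not seen when peaks were ranked by the deposited -log10 p, where the median was -0.003.

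Firre moved with the genotype in the same libraries. Its span (chrX:50563120-50635321) held 5, 23, 20 and 20 RAD21 peaks in WT replicates 1 to 4 and none in either mutant. These peaks made 23 sites, with folds of 2.45 to 8.30, of which 5 were in all 4 WT libraries and 19 in at least 3. Elsewhere in the series the Firre peaks varied within alleles too: there were 0 in each Del(CBS1) library, 21 in Del(CBS2), and 0 in 1 library but 12 to 21 in the other of Del(CBS1-3), Del(CBS1-4) and Del(CBS1-5). Peaks on the Y chromosome numbered 1, 10, 0 and 5 in WT and 11 and 11 in Del(CBS1-2). The sex of the embryos is not in the labels used here, and its part in the X-linked and Firre results was not tested.

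**Figure D4:**
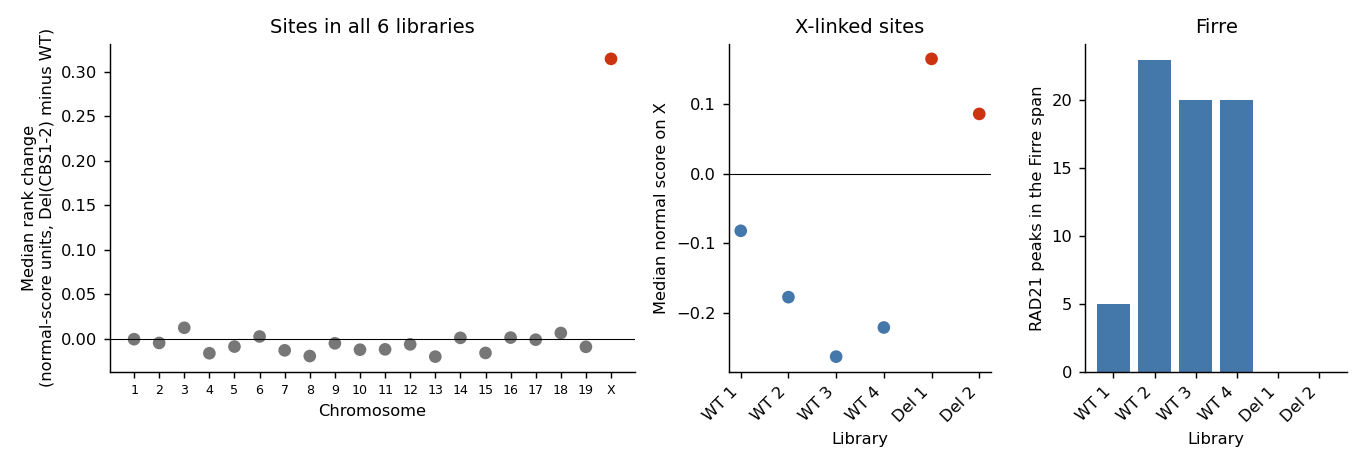
Left, median rank change of the shared sites of each chromosome (vertical axis, normal-score units, Del(CBS1-2) minus WT), with the X at 0.31 and the autosomes between -0.02 and 0.01. Middle, median normal score of X-linked sites per library; right, number of RAD21 peaks in the Firre span per library, which is 0 in both mutants; WT is blue and Del(CBS1-2) red.

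Neither regulatory landscape of HoxD lost a RAD21 site, but they held only 4 and 8 sites of all 4 WT libraries. Across the genome 0.105% of such sites were lost, so an absence of losses among so few sites says little. The centromeric landscape, from Atp5g3 to the HoxD window, had 4 sites in all 6 libraries, of which 3 had a higher and 1 a lower score. The limma test called 0 of them, as it did over all shared sites. The lower one, in the span of 4930441J16Rik (chr2:74300462), had WT percentiles of 66.3, 50.0, 56.4 and 70.4 and mutant percentiles of 28.5 and 44.7. Both mutants lay below all WT values there, as at 5.88% of the shared sites, and the difference was -0.63 ± 0.26 (SE) normal-score units with an unadjusted p of 0.025 and a limma adjusted p of 0.999. The strongest site of that landscape, 88418 bp from Gm31472, stood at percentiles 89.8 to 99.2 in WT and at 96.8 and 98.0 in the mutants. The telomeric landscape, from the window to Hnrnpa3, had 8 shared sites, 4 with a higher and 4 with a lower score, at differences of -0.26 to 0.17. Its strongest, in 2600014E21Rik (chr2:75138100), stood at 91.4 to 95.03 in WT and at 96.9 and 89.8 in the mutants. A single gained site was found there, in Mtx2 (chr2:74847666), a gene for a mitochondrial import protein, with a mean mutant fold of 3.73. Across the genome, 3.29% of the sites found in both mutants were gained.

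**Figure D5:**
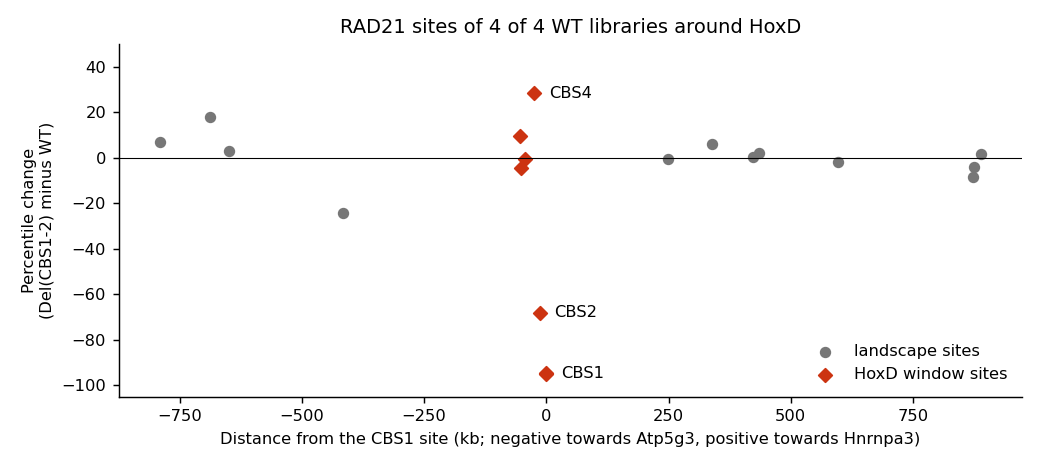
Percentile change (vertical axis, Del(CBS1-2) minus WT mean) of the RAD21 sites of the 2 landscapes found in all 6 libraries (circles) and of the HoxD sites found in all 4 WT libraries (diamonds), by distance from the CBS1 site in kb (horizontal axis). CBS1 lies at -94.9 and CBS2 at -68.2, and the landscape sites lie between -24.2 and 17.9.

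RAD21 sites within 5000 bp of a gene of 6 further lists were described in the same way. The limma test called 0 of them, as it did over all shared sites, and no test of a list as a group was made. At the other Hox clusters 5 of 9 tested sites had a higher score, with a median difference of 0.05 beside -0.001 over all shared sites. The strongest, 208 bp from Hoxc10, stood at percentiles 90.04 to 99.5 in WT and 97.7 and 98.4 in the mutants, and that near Hoxa9 at 87.7 to 99.2 and 98.5 and 95.7. At imprinted genes, which are read from 1 parental copy, 10 of 25 were higher (median -0.02). The site in Airn, the non-coding RNA that silences Igf2r, stood at 82.7 to 95.4 in WT and 92.4 and 81.7 in the mutants. Of the sites at genes of cohesin and the loop machinery, 8 of 14 were higher (median 0.14), and the site near Smc3, a core subunit of the ring, stood at 89.6 to 95.8 in WT and 92.1 and 96.9 in the mutants. Of the 14 sites 4 are X-linked, while the 10 autosomal sites had a median of 0.01. The largest difference of that list was at Hdac8, which deacetylates SMC3 and is on the X. It was 1.36 ± 0.34 (SE, chrX:102494175, chosen after its value was seen). The other tested Hdac8 sites differed by 0.34 ± 0.35 (SE, chrX:102479097) and -0.07 ± 0.32 (SE, chrX:102476949).

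Among developmental regulators, the neural tube list had 4 of 7 sites higher (median 0.11). Its site 1679 bp from Foxa2, the floor plate factor, stood at 69.2 to 87.6 in WT and 76.1 and 55.4 in the mutants. The somite and muscle list had 7 of 12 higher (median 0.01), and the site in Tbx18 stood at 31.1 to 62.6 in WT and at 17.2 and 36.9 in the mutants. The limb and lateral plate list had 5 of 14 higher (median -0.11), with the site in Gli3, a transcription factor of Hedgehog signalling, at 32.8 to 77.1 in WT and 51.6 and 60.7 in the mutants. The strongest site of that list, within 5000 bp of Msx2, a homeobox gene of the limb bud (chr13:53462058), stood at 73.0 to 90.8 in WT and at 67.9 and 64.0 in the mutants, below all WT values (-0.47 ± 0.25 (SE) normal-score units, limma adjusted p = 0.999). Among the 12 strongest sites of these 6 lists, 2 per list, at least 1 mutant library lay inside the WT range at the other 11. Over all shared sites, both mutants lay above all WT values at 5.79% and below them at 5.88%. A single such site among 12 is thus not unusual. Besides CBS1, the lists held no lost site, where 0.105% of the sites of all 4 WT libraries were lost across the genome. Gained sites numbered 1 at the other Hox clusters and 1 at the cohesin genes, beside 3.29% of the sites found in both mutants across the genome.

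The kind of place where RAD21 peaks lay was measured in each library. The share of RAD21 peaks overlapping a 150 bp window to either side of a CTCF site was 95.4%, 77.6%, 84.6% and 80.8% in WT and 78.9% and 78.2% in Del(CBS1-2). The means were 84.6 ± 7.74% (SD, n = 4) and 78.5 ± 0.48% (SD, n = 2), with an exact two-sided permutation p of 0.467, and the mutants lay inside the WT range. The share of summits within 1000 bp of a gene start was 8.88%, 17.8%, 13.0% and 12.1% in WT and 16.7% and 17.2% in Del(CBS1-2) (exact two-sided permutation p = 0.333). The shares followed list length: WT replicate 1, with the shortest list, had the highest share at CTCF sites and the lowest at gene starts. With every list cut to its 22406 top peaks, the CTCF shares were 95.2% in WT and 95.6% in the mutants.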

How the data were processed

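RAD21 was mapped in 4 WT and 2 Del(CBS1-2) trunks, and each library has a peak list of its own among the deposited files. The submitters' processing notes name MACS2 (2.1.1.20160309) as peak caller, Bowtie2 (2.3.5) and the build mm10, besides cutadapt (1.16), Picard (2.19.0), SAMtools (1.9) and bedtools (2.27.1). Their options are not given in the sources used here. The fold enrichment of a summit over local background is deposited as a ratio. The deposited lists give a -log10 q and a -log10 p for every peak, the deposited score is a display value and was not used, and the summit is an offset from the peak start. Values called on separate libraries are comparable only as ranks, so normal scores of ranks over the sites in all 6 libraries were fitted with limma 3.58.1 (R 4.3.3, trend and robust), with Benjamini-Hochberg adjustment at 0.05 over all sites. Single values were compared by exact permutation. CTCF sites were those of all 3 CTCF WT libraries (47658). Gene names, spans and promoters (32851 windows) are RefSeq GRCm38.p6, which gives no exons here. Positions count from 1. Named were the HoxD sites with a peak in at least 2 libraries, 5 sites per direction by p, the 5 strongest lost and gained sites, the 3 strongest or any changed sites of each landscape, and at most 2 per gene list. Members, lists and tests were chosen with earlier results of these data known. Alternatives covered detection, peak threshold, list length, measure ranked, fit, samples and leaving out each library. Tested on simulated data, the fit recovered 4%, 20%, 52% and 84% of 50 planted shifts each of 1, 1.5, 2 and 3 normal-score units among 19832 sites, with 0 false calls. The simulated noise was independent from site to site. Deviations that a library shares across sites were not simulated, so these rates may not hold for the real lists. Other steps ran in Python 3.11.15 with scipy 1.17.1, pandas 2.3.3, numpy 2.4.6 and, for plots, matplotlib 3.10.9.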

Additional observations from a re-analysis of the deposited data

Results flagged for a closer look

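Among 17 groups of 4 WT values, 4 had 1 library far from the other 3. Chance gives about 1 in 20 for continuous values, a rate that does not apply to the sites at CBS5 and near Hoxd1, where 2 and 3 of the WT values are 0 for no peak. WT replicate 1 had 5 RAD21 peaks in Firre against 20 to 23 in the other WT libraries. At the site near Hoxd13 (chr2:74673082), WT replicate 4 stood at percentile 52.0, below the other WT libraries at 86.7 to 92.1. At CBS5, WT replicate 3 stood at percentile 10.7 and the others at 0 to 0.116. At the site near Hoxd1 (chr2:74762956), WT replicate 2 had the only WT peak, at percentile 1.08.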

How the results depend on the processing

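Depth was unknown, and list length limits the counts of lost and gained sites. The 0 rank calls became 1 (lower, 17701 bp from Gm26331) with peaks of -log10 q of at least 10, 17 (16 higher) with the replicate number as a block, which the check of deviations does not pair (correlations 0.015 and -0.024), and 0 to 3 leaving out each library, where Del(CBS1-2) replicate 1 gave 3, Del(CBS1-2) replicate 2 and WT replicate 2 gave 2 each and WT replicate 3 gave 1. All 16 RAD21 libraries gave 0, with and without that block. Under the block, the X-linked sites in Gm42406 and near Gm16436 were called, as were X-linked sites in 6030498E09Rik and near Gm14521 and Tlr8. Lost sites numbered 33 with a summit within 100 bp, 5 with -log10 q of at least 10, 69 with equal lists and 36 to 246 leaving out each library (246 without WT replicate 1). Gained sites numbered 256, 149 and 1072 to 4760 in the latter 3 (4760 and 4669 without a mutant library, 2191 without WT replicate 2). The CTCF share difference of -6.06 points turned to 0.450 with equal lists and ran from -8.39 to -2.47 leaving out each library. The X-linked median, an alternative chosen after seeing the data, was 0.51 with all 16 libraries (0.51 with the block), 0.17 for centred log2 values, 0.54 at -log10 q of at least 10, 0.49 without the weakest 25% and -0.0031 by -log10 p, and 0.28 to 0.35 leaving out each library. Leaving out each library, the percentile change ran from -97.1 to -94.2 at CBS1, -72.2 to -65.7 at CBS2 and 16.7 to 33.2 at CBS4. Sites with values near 0 changed sign. The Gm31790 site chr2:74663707 gave 0.068 by -log10 p, 0.33 with the block and -0.24 to 0.21 leaving out each library, and as percentiles 0.831 by -log10 p and -8.82 to 3.41. Hoxc10 gave -0.021 for centred log2 values, -0.18 with the block and -0.13 with the block over 16 libraries. The site near Pds5b gave 0.024 by -log10 p. Leaving out each library gave -0.44 to 0.0079 near Hoxd13 (percentiles -9.87 to 3.33), -0.14 to 0.28 at Hoxc10, -0.47 to 0.061 in Airn, -0.34 to 0.042 near Plagl1, -0.084 to 0.38 near Smc3, -0.26 to 0.037 near Pds5b, -0.32 to 0.070 in Gli3, and percentiles of -0.285 to 0.307 near Hoxd1.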
